A study of Mus musculus with 24 samples.

Results

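Interferon-stimulated genes were followed in sorted mouse CD4 T cells with and without Raptor, before and after stimulation through the T cell receptor. The 40 names came from a fixed list of interferon targets and were matched to probe sets by gene symbol or current synonym. A probe set annotated to that gene alone was found for 34 of the 40, out of 17097 genes with such a probe set. Where a gene had several probe sets, the one with the highest mean over all 24 arrays was used and the others served as a check. Isg15, Oas1a, Ifi44, Bst2 and Tap1 had no such probe set here and were not analysed, and the listed name Eif2ak2x matched no gene symbol. Of the 34 measured members, 27 are targets typical of type I interferon, 6 are GTPases of the type II response, and Irf1 was placed with neither. The types name classes of the list and do not show which interferon acted on a gene in these cells.

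Raptor is the defining subunit of mTORC1, the kinase complex that couples nutrient and antigen-receptor signals to growth, and the study asked how it acts when naive T cells leave quiescence. Naive cells (CD4+CD62LhiCD44loCD25-) from spleen and peripheral lymph nodes of wild-type mice (strain C57BL/6 in the labels) or CD4(cre)Raptor(fl/fl) mice were either left unstimulated or placed on anti-CD3/CD28 antibodies for 8 h or 24 h. Each of the 6 groups holds 4 samples, each measured on its own array. Cre under Cd4 control acts from thymic development onwards, so cells with the deletion had matured without intact Raptor genes. How complete the deletion was in these cells was not established here. The labels do not say whether the wild-type mice carried Cre, nor whether same-group samples came from separate mice, so each p-value reflects only how far these samples lie apart, which may be technical variation. Unstimulated cells were used directly after sorting, so stimulation and time in culture cannot be told apart in the first time step.

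Type I interferons (IFN-alpha and IFN-beta) signal through IFNAR and the kinases JAK1 and TYK2, and lead to binding of a complex that holds STAT2 and IRF9 at the interferon-stimulated response element (ISRE). Interferon-gamma, the type II interferon that activated T cells themselves secrete, signals through IFNGR to genes with a gamma-activated site (GAS). The type I-type targets include proteins that block viral replication, sensors of viral RNA and DNA, and the factors that amplify or end the response. The GTPases, guanylate-binding proteins (Gbp2, Gbp3) and immunity-related GTPases (Igtp, Irgm1, Iigp1, Ifi47), act on the vacuoles of intracellular microbes.

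Promoter sequence was read because the ISRE and the GAS are the elements through which these genes are known to be induced. RefSeq promoters of GRCm38.p6 were matched for 24 of the 34 measured members, and the 250 bases before each start were searched on both strands. The ISRE core, GAAA, then any 2 bases, then GAAA, was present in 6 of 18 type I-type members and 4 of 5 GTPases, against 2.98% of 32851 promoters. The GAS core TTCNNNGAA was present in 2 of 18 type I-type members, 1 of 5 GTPases and Irf1, against 7.02% of the promoters. A member was counted where any of its promoters held the core, while these percentages count single promoters, so the shares are not fully alike. The letters of these cores do not overlap each other in the sequences shown. Below are 3 type I-type members that were higher in Raptor-deficient cells at 24 h and hold the ISRE core, then 2 GTPases that rose in both genotypes and hold it, each 5′ to 3′ on the gene's strand, with the matches to either core in capitals.
Ifit1 (chr19:34640639-34640888, plus strand): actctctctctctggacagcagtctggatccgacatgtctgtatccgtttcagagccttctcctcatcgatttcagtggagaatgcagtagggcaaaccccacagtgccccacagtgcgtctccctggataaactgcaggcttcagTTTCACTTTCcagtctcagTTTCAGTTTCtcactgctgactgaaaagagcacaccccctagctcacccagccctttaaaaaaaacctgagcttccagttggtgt
Rsad2 (chr12:26456453-26456702, minus strand): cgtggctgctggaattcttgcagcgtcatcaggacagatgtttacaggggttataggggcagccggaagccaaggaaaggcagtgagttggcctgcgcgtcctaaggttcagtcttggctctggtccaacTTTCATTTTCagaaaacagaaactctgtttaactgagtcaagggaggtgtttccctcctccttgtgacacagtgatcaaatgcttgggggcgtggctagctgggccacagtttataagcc
Stat2 (chr10:128270248-128270497, plus strand): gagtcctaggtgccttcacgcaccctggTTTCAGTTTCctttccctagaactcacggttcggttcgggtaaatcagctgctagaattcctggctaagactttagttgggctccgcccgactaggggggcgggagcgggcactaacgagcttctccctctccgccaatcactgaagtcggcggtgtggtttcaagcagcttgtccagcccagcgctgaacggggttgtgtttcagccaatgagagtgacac
Gbp2 (chr3:142620413-142620662, plus strand): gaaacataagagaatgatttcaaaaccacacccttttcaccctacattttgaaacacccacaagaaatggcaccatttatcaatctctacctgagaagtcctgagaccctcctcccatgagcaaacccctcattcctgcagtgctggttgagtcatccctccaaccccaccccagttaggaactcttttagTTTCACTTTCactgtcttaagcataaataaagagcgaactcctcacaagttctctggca
Igtp (chr11:58199306-58199555, plus strand): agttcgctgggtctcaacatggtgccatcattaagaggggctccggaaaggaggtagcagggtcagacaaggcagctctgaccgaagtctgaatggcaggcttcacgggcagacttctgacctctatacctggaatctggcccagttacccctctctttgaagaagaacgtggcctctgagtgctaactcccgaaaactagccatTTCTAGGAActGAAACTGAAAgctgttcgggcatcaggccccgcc
In Ifit1 the core occurs at 2 places, starting 104 and 85 bases before the start. In Gbp2 it begins 59 bases before the start, in Rsad2 120 and in Stat2 222. Igtp holds a GAS core 45 bases and an ISRE core 34 bases before the start. Ifih1 and Epsti1, the 2 members that were lower at 24 h, hold neither sequence in this window, and the same is true of Ddx58, Dtx3l, Ifi35, Irf7 and Xaf1, which were higher then. Ifit3, Oas3 and Trim30a hold the ISRE core and were not called at 24 h. A match describes these letters and was not tested as a binding site.

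All values are log2 intensities, and differences are in log2 units, so a difference of 1 is a doubling. A gene was called where limma's test, fitted to all 24 arrays and adjusted over all 17097 genes, gave an adjusted p under 0.05. The Rptor probe set used read 7.04, 7.49, 7.19 and 7.39 in unstimulated wild-type cells and 5.92, 7.37, 6.55 and 6.79 in unstimulated CD4(cre)Raptor(fl/fl) cells. At 8 h it read 7.49, 7.51, 7.57 and 7.46 in wild-type cells against 6.41, 6.27, 6.5 and 6.79, and at 24 h 7.07, 6.91, 7.15 and 7.21 against 6.25, 6.60, 6.45 and 6.48. Rptor was thus lower in every stimulated Raptor-deficient array, by 1.01 at 8 h (adjusted p = 0.000292) and 0.64 at 24 h (adjusted p = 0.0109), and not called before stimulation (-0.62, adjusted p = 0.075). A second, dimmer Rptor probe set read 6.17 to 6.28 in unstimulated wild-type and 5.47 to 5.85 in unstimulated Raptor-deficient arrays, 6.23 to 6.53 and 5.59 to 5.77 at 8 h, and 6.10 to 6.30 and 5.42 to 5.77 at 24 h. On this probe set the genotypes were apart in all 3 conditions. Where these probe sets lie against the deleted part of the gene is not given in the sources used here, so they are an incomplete check of the labels. Of the CD4 T cell markers, 5 of 6 were measured and all were above 5.51, the median of all values, in every group. The unstimulated Raptor-deficient replicate 1 stood apart from its group with a residual SD of 0.280, against 0.119 to 0.222 in the other 23 arrays. Replicate 1 of both 24 h groups read 9.02 and 9.11 for the liver gene Alb, which lay between 6.22 and 6.42 in the other 24 h arrays, and the 24 h counts are also given without both of them.

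Before stimulation few interferon-stimulated genes were called between the genotypes, and the 2 calls upwards were lost under some settings. In Raptor-deficient cells 2 of the 34 members were higher and 1 was lower, which is 8.82% of them, where 1.94% of all genes were called (0.702% higher, 1.24% lower). Before adjustment, limma's test gave a p under 0.05 for 9 of the 34, of which 6 were higher. Rsad2 encodes viperin, an enzyme that makes a nucleotide terminating viral RNA synthesis. It read 4.49, 4.49, 4.41 and 4.46 in wild-type cells and 5.71, 5.02, 5.01 and 4.93 in Raptor-deficient cells. Each Raptor-deficient array was above each wild-type array, and the difference was 0.71 (SE 0.17, adjusted p = 0.025). The call for Rsad2 was lost without any one of the wild-type unstimulated arrays (adjusted p 0.0538 to 0.0688) or without Raptor-deficient replicate 1 (0.0918), and the other Rsad2 probe sets gave 0.16 and 0.30, neither of them called. It was also lost when limma weighted the arrays (adjusted p = 0.125) or fitted the unstimulated arrays alone (0.108).

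Oas2 makes the 2-5A messenger that activates RNase L. Its values were 5.86, 5.54, 5.59 and 5.87 in wild-type cells and 5.96, 6.20, 6.37 and 6.18 in Raptor-deficient cells. These groups did not overlap either, and the difference was 0.46 (SE 0.11, adjusted p = 0.0205), but the call was lost without wild-type replicate 2 (0.082) or 3 (0.0767), or with Raptor-deficient replicates 2 and 3 left out together (0.115). A limma fit of the unstimulated arrays alone lost the Oas2 call as well (adjusted p = 0.202). Epsti1, an interferon-induced gene first described in epithelial cells next to stroma, went the other way. It read 6.04, 6.29, 6.15 and 6.13 in wild-type cells and 4.36, 5.22, 4.66 and 5.03 in Raptor-deficient cells. The difference of -1.33 (SE 0.16, adjusted p = 2.58e-05) kept its call without any one array, while a second, dimmer Epsti1 probe set (mean 3.84) gave -0.24 and was not called. Of the 6 GTPases none was called, with differences from -0.32 to 0.52 and 1 of them at an unadjusted p under 0.05.

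After 8 h on the antibodies all 6 GTPases were higher in both genotypes, while type I-type targets changed in both directions. In wild-type cells 20 of 34 members rose and 5 fell, where 39.7% of all genes were called (18.9% higher, 20.8% lower). In Raptor-deficient cells 19 rose and 3 fell, where 32.8% of all genes were called (16% higher, 16.8% lower), and these 22 members were all among the 25 of wild-type cells. The GTPases rose by a median of 2.98 in wild-type cells and 2.85 in Raptor-deficient cells, while the medians of all genes were near 0.

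Gbp2, whose product coats pathogen vacuoles, read 6.30, 6.34, 6.12 and 5.93 before and 11.17, 10.89, 10.65 and 9.64 after 8 h in wild-type cells. In Raptor-deficient cells it read 7.0, 6.34, 5.80 and 5.46 before and 10.85, 10.72, 10.14 and 9.72 after. The arrays did not overlap between times in either genotype, and the rises were 4.42 (SE 0.30, adjusted p = 3.74e-12) and 4.20 (SE 0.30, adjusted p = 1.89e-11). Iigp1, an immunity-related GTPase that disrupts vacuole membranes, went from 5.69, 5.35, 4.86 and 5.37 to 10.10, 9.74, 9.20 and 8.45 in wild-type cells. In Raptor-deficient cells Iigp1 went from 5.56, 4.76, 4.98 and 4.69 to 9.43, 9.57, 9.02 and 8.56. Its rises were 4.05 (adjusted p = 1.5e-11) and 4.15 (adjusted p = 1.89e-11), again with no overlap.

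Irgm1, a regulator of the other immunity-related GTPases, was 4.18, 4.15, 3.79 and 4.53 and became 7.88, 7.39, 7.15 and 6.33 in wild-type cells. In Raptor-deficient cells it was 4.79, 4.30, 4.01 and 4.27 and became 7.52, 7.43, 6.80 and 6.70. Irgm1 therefore rose by 3.03 (adjusted p = 3.12e-10) and 2.77 (adjusted p = 3.07e-09). Igtp, also called Irgm3, rose in wild-type cells from 8.67, 8.60, 8.31 and 8.49 to 11.01, 10.63, 10.24 and 9.86, by 1.91 (adjusted p = 5.62e-09). Its rise in Raptor-deficient cells was 1.5 (adjusted p = 6.12e-07). Gbp3 rose from 3.75, 3.37, 3.55 and 3.89 to 7.18, 7.07, 6.15 and 5.88 in Raptor-deficient cells, by 2.93 (adjusted p = 2.09e-08), and by 2.93 in wild-type cells. Ifi47 rose by 1.15 and 1.0.

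Among the type I-type targets 13 of 27 rose and 5 fell in wild-type cells, and 12 rose and 3 fell in Raptor-deficient cells. Those that rose in both genotypes include Rtp4 (1.6 and 1.54), a transmembrane protein that restrains viral replication, and Xaf1 (0.81 and 1.25), a pro-apoptotic partner of XIAP. The nucleic acid sensors Zbp1 (0.68 and 1.36), Oasl2 (1.19 and 0.83) and Ifih1 (0.73 and 0.94) rose as well. Irf1, the transcription factor shared by both interferon types, rose by 0.89 and 1.36.

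Ifit2, listed among the antiviral effectors, fell in wild-type cells from 8.00, 7.97, 8.04 and 8.29 to 7.15, 6.73, 6.14 and 6.69. In Raptor-deficient cells it fell from 7.42, 8.15, 7.55 and 7.89 to 6.68, 6.83, 6.21 and 6.61. The changes were -1.40 (adjusted p = 6.19e-08) and -1.17 (adjusted p = 1.75e-06), and every 8 h array was below every unstimulated array of its genotype. Ddx58, which encodes the RNA sensor RIG-I, went from 6.65, 7.03, 7.12 and 6.83 to 6.35, 5.62, 5.44 and 5.91 in wild-type cells. In Raptor-deficient cells Ddx58 went from 6.61, 6.95, 6.84 and 6.92 to 6.34, 6.04, 6.38 and 6.12. It fell by 1.07 (adjusted p = 8.52e-07) and 0.61 (adjusted p = 0.00163), and its relative Ifih1 rose, so the 2 cytosolic RNA sensors changed in opposite directions in each genotype.

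Epsti1 fell from the unstimulated values given above to 5.46, 4.98, 4.59 and 4.62 in wild-type cells and to 4.24, 4.08, 4.07 and 4.07 in Raptor-deficient cells. Its changes were -1.24 (adjusted p = 4.41e-07) and -0.70 (adjusted p = 0.00118). Mx1, a GTPase that blocks influenza virus but is disrupted by a deletion in C57BL/6 mice, was dim throughout: 4.59, 4.40, 4.21 and 4.40 before and 4.04, 4.17, 3.95 and 4.17 after in wild-type cells. It fell by 0.32 there (adjusted p = 0.00725) and its change in Raptor-deficient cells was not called. Of the 34 members, 6 (Mx1, Mx2, Oas3, Oasl1, Usp18 and Dhx58) stayed below the median of all values in every group, where an array compresses differences.

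No member's change from unstimulated to 8 h differed between the genotypes after adjustment: 0 of 34 were called by limma, where 6.29% of all genes were, and 4 had an unadjusted p under 0.05. At 8 h itself 1 member was higher and 1 lower in Raptor-deficient cells, where 12.9% of all genes were called (4.14% higher, 8.77% lower). Rsad2 read 4.87, 4.55, 4.43 and 4.38 in wild-type cells and 5.54, 5.75, 4.94 and 5.47 in Raptor-deficient cells, without overlap. The difference was 0.87 (SE 0.17, adjusted p = 0.000691). Epsti1, with the values above, was lower by 0.79 (SE 0.16, adjusted p = 0.00128), also without overlap, but its second probe set gave 0.00. For Ddx58 the probe set used gave 0.39 (limma adjusted p = 0.0884) and was not called. Of its other probe sets, one gave 0.41 and was called higher, and one gave 0.05 and was not. The 6 GTPases differed by -0.25 to 0.11, none of them at an unadjusted p under 0.05. Myeloid markers gave a log2 summed intensity of 7.32 to 7.49 in wild-type and 7.78 to 8.22 in Raptor-deficient 8 h arrays, and 7.34 to 7.49 and 7.62 to 8.12 before stimulation, with groups apart both times. B cell markers gave 6.80 to 6.95 and 7.02 to 7.57 at 8 h, also apart. Other lists were lower in Raptor-deficient arrays and apart. CD4 T cell markers gave 12.70 to 12.89 in wild-type and 12.49 to 12.62 in Raptor-deficient arrays at 8 h. CD8 T cell markers gave 7.14 to 7.36 in wild-type and 6.63 to 7.02 in Raptor-deficient arrays at 8 h, with 0 of 2 genes called. NK cell markers gave 9.20 to 9.33 and 8.89 to 9.01 before stimulation. The part of these markers in the Rsad2 difference was not tested.

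**Figure D1:**
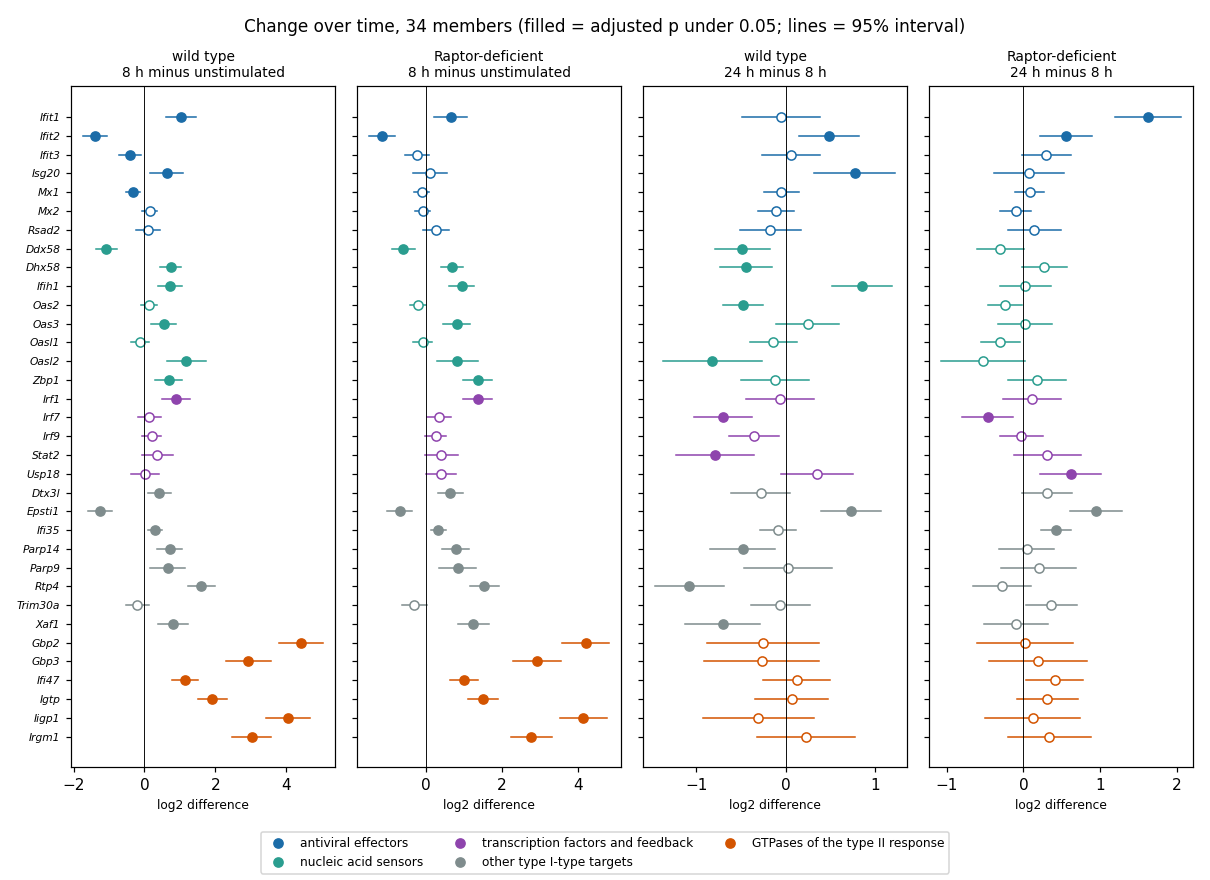
Change in log2 intensity over time (x axes) for the 34 measured members (rows, coloured by class), with 8 h minus unstimulated in the left pair of panels and 24 h minus 8 h in the right pair, wild type and Raptor-deficient side by side. Points are fitted differences, lines 95% intervals, and filled points have an adjusted p under 0.05. All 6 GTPases are filled and positive at 8 h in both genotypes, and none is filled from 8 h to 24 h.

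From 8 h to 24 h the GTPases had no called change in either genotype, while the type I-type targets went separate ways. In wild-type cells 4 of 34 members rose and 9 fell, where 28.3% of all genes were called (17.4% higher, 11% lower). In Raptor-deficient cells 5 rose and 1 fell, where 23% of all genes were called (15.2% higher, 7.81% lower). These changes share the 8 h arrays with the first time step, and in the GTPases of wild-type cells those arrays were spread widely, with a median SD of 0.657 against 0.130 over all genes.

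In wild-type cells Rtp4 fell from 6.98, 7.01, 6.09 and 6.21 to 5.76, 5.65, 5.29 and 5.28, by 1.08 (SE 0.19, adjusted p = 5.47e-05). Irf7, the factor that amplifies type I interferon production, fell from 6.59, 6.49, 6.01 and 6.15 to 5.64, 5.68, 5.68 and 5.45, by 0.70 (adjusted p = 0.00121). For both genes every 24 h array was below every 8 h array. Stat2, a subunit of the ISRE-binding complex, went from 8.06, 8.02, 7.12 and 6.97 to 6.92, 6.68, 6.66 and 6.75, by -0.79 (SE 0.21, adjusted p = 0.00531). Oas2 went from 5.78, 5.81, 6.00 and 5.79 to 5.56, 5.43, 5.28 and 5.20, by -0.48 (adjusted p = 0.000981). Stat2 and Oas2 did not overlap between the times either, although Stat2 split within the 8 h group into arrays near 8 and arrays near 7, and its second probe set gave no call (-0.46, adjusted p = 0.0828).

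The members that rose in wild-type cells were Ifih1, Epsti1, Isg20 and Ifit2. Ifih1, the RNA sensor MDA5, rose from 6.22, 6.06, 6.03 and 5.64 to 6.92, 6.83, 6.91 and 6.69, by 0.85 (SE 0.16, adjusted p = 0.000181). Epsti1 rose to 5.60, 5.81, 5.52 and 5.61, by 0.72 (adjusted p = 0.00115), but its second probe set gave 0.03 (adjusted p = 0.905). Isg20, an exonuclease that degrades single-stranded RNA, rose from 5.53, 5.41, 5.66 and 5.71 to 6.38, 6.28, 6.47 and 6.24, by 0.77 (adjusted p = 0.00902). For these 3 genes the groups did not overlap. Ifit2 moved back up to 7.13, 7.15, 7.07 and 7.28, by 0.48 (adjusted p = 0.0277), overlapping at the highest 8 h array, and this call was lost without wild-type 8 h replicate 3, or 24 h replicate 2 or 4 (adjusted p up to 0.165), without replicate 1 of both 24 h groups together (0.051), and after cyclic loess (0.0584) or centring of array medians (0.0567).

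In Raptor-deficient cells Ifit1, which binds viral RNA caps that lack methylation, rose from 6.31, 6.01, 5.93 and 5.67 to 7.84, 7.49, 7.91 and 7.21. This rise of 1.63 (SE 0.21, adjusted p = 1.46e-06) separated every 24 h array from every 8 h array. Epsti1 rose to 5.07, 4.94, 4.89 and 5.37, by 0.95 (adjusted p = 7.56e-05), where its second probe set gave 0.22 and no call (adjusted p = 0.185). Ifi35, an adaptor induced by interferon, rose from 7.61, 7.39, 7.40 and 7.28 to 7.84, 7.71, 7.93 and 7.89, by 0.42 (adjusted p = 0.00164). Ifit2 reached 7.24, 6.98, 7.16 and 7.19, a rise of 0.56 (adjusted p = 0.0127) that was lost without Raptor-deficient 8 h replicate 3 (0.0702). Usp18, the protease that removes ISG15 and damps IFNAR signalling, was the fifth member that rose (0.62, adjusted p = 0.0211). Irf7 fell from 6.74, 6.64, 6.58 and 6.15 to 6.33, 5.95, 6.18 and 5.76, by 0.47 (adjusted p = 0.0332), with overlap, and was not called without Raptor-deficient 8 h replicate 1, 2 or 3 or 24 h replicate 2 or 4 (adjusted p up to 0.136).

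At 24 h type I-type targets were higher in Raptor-deficient cells. Of the 34 members 12 were called higher and 2 lower, which is 41.2% of them, where 21.5% of all genes were called (8.35% higher and 13.1% lower). All 14 are type I-type targets, and 12 of the 27 such targets were thus called higher. The median difference was 0.41 over the 27 type I-type members and 0.21 over the 6 GTPases, against 0.01 over all genes. Outside the members it was 0.13 over 28 further type I-type targets and 0.29 over 17 other type II targets and antigen processing genes. Of the latter 6 were called higher and none lower, so calls upwards at 24 h were not confined to type I-type targets. In 17 members every Raptor-deficient array was above every wild-type array, and in 3 below, where 12% and 16.5% of all genes were separated in these ways.

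Of the 7 antiviral effectors 2 were called higher, Ifit1 and Rsad2. Ifit1 read 6.17, 6.19, 6.09 and 5.11 in wild-type cells and 7.84, 7.49, 7.91 and 7.21 in Raptor-deficient cells, a difference of 1.72 (95% interval 1.29 to 2.15, adjusted p = 7e-07), or 3.30-fold. Rsad2 read 4.37, 4.55, 4.35 and 4.28 in wild-type cells and 5.92, 5.39, 5.23 and 5.72 in Raptor-deficient cells. Its difference was 1.18 (95% interval 0.84 to 1.53, adjusted p = 6.26e-06), and its other probe sets were also called higher, by 0.81 and 0.76. The wild-type values of Rsad2 lay below the median of all values, and the groups of both genes were apart. The other effectors were not called, with differences of 0.41 for Ifit3, 0.21 for Mx1, -0.02 for Ifit2, -0.06 for Mx2 and -0.54 for Isg20.

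Among transcription factors and feedback regulators Stat2 read 6.92, 6.68, 6.66 and 6.75 in wild-type cells and 7.89, 7.50, 7.41 and 7.61 in Raptor-deficient cells. The difference was 0.85 (95% interval 0.41 to 1.29, adjusted p = 0.00411), with no overlap, and the second Stat2 probe set gave 0.45 and was not called. Irf7 (0.45) and Usp18 (0.56) were also called higher, and Irf9 (0.36, adjusted p = 0.0647) and Irf1 (0.44, adjusted p = 0.0967) were not. Among the remaining targets Rtp4 read 5.76, 5.65, 5.29 and 5.28 in wild-type cells and 6.76, 6.29, 6.14 and 6.34 in Raptor-deficient cells. Its difference was 0.89 (95% interval 0.50 to 1.27, adjusted p = 0.000832), and its second probe set was also called higher (0.38). Xaf1 read 7.53, 7.43, 6.96 and 6.89 in wild-type cells and 8.15, 8.29, 7.99 and 7.92 in Raptor-deficient cells, a difference of 0.88 (95% interval 0.47 to 1.30, adjusted p = 0.00193). Both genes were apart in every array, and a dim second Xaf1 probe set (mean 3.41) gave 0.19 and was not called. Dtx3l (0.61) and Ifi35 (0.29) were called higher, too.

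The nucleic acid sensors were divided. Ddx58 (0.57), Dhx58 (0.44) and Oas2 (0.36) were called higher, and Ifih1 was lower. The Dhx58 call rests on 1 of 3 probe sets, the others giving 0.01 and 0.29 without a call, and all 3 are dim. Ifih1 read 6.92, 6.83, 6.91 and 6.69 in wild-type cells and 6.02, 6.29, 6.30 and 6.06 in Raptor-deficient cells, without overlap, a difference of -0.67 (95% interval -1.01 to -0.34, adjusted p = 0.0032). On the probe sets used, RIG-I and LGP2 (the product of Dhx58) transcripts were thus higher and MDA5 transcripts lower in the same arrays. The other Ddx58 probe sets gave 0.43, which was called higher, and 0.14, which was not called (adjusted p = 0.48). Epsti1 was the other lower member, at 5.60, 5.81, 5.52 and 5.61 against 5.07, 4.94, 4.89 and 5.37, a difference of -0.57 (adjusted p = 0.0126) without overlap. It was not called on the mean of both Epsti1 probe sets (adjusted p = 0.236), and the second probe set alone gave 0.20.

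None of the 6 GTPases was called at 24 h, and none had an unadjusted p under 0.05. Gbp2 read 10.51, 10.65, 10.55 and 9.61 in wild-type cells and 10.74, 10.24, 10.28 and 10.25 in Raptor-deficient cells, a difference of 0.05 with a 95% interval of -0.58 to 0.68. Irgm1 gave 0.04 (-0.51 to 0.58), Iigp1 0.21 (-0.41 to 0.82) and Gbp3 0.21 (-0.43 to 0.85). Igtp gave 0.36 (-0.04 to 0.76) and Ifi47 0.25 (-0.13 to 0.62). All 6 estimates were positive, and each interval reached 0.58 or higher, so none of them excludes a difference of that size. Whether the type I-type targets and the GTPases differ from each other was not tested.

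**Figure D2:**
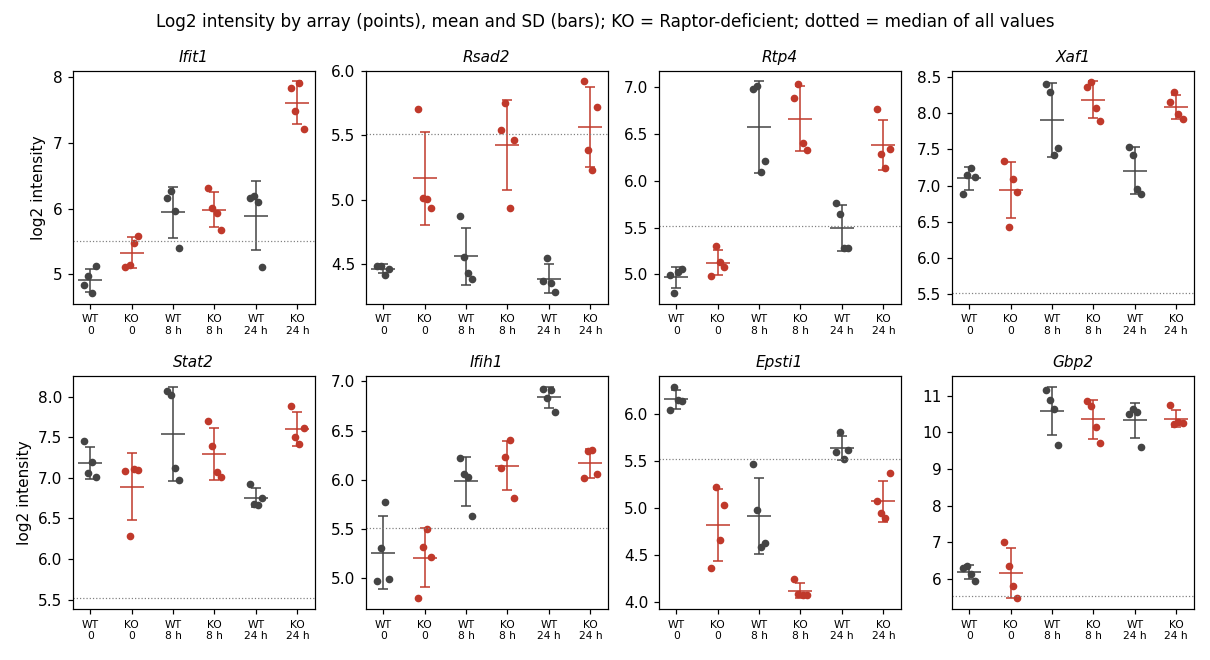
Log2 intensity (y axes) of 8 members in each array (points) of the 6 groups, with mean and SD as bars, wild type in grey and Raptor-deficient in red, unstimulated written as 0; the dotted line is the median of all values, 5.51. The Raptor-deficient 24 h arrays of Ifit1, Rsad2, Rtp4, Xaf1 and Stat2 lie above all wild-type 24 h arrays, those of Ifih1 and Epsti1 lie below them, and those of Gbp2 overlap.

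The 24 h count rested in part on single arrays. It was 9 without wild-type replicate 4 or without Raptor-deficient replicate 1, 10 without replicate 1 of both groups, and 22 (19 higher, 3 lower) where the fit held the 24 h arrays alone. Ifit1, Rsad2, Rtp4, Xaf1, Stat2, Ddx58, Dtx3l, Ifih1 and Epsti1 stayed called without any one of the 24 arrays. The call for Oas2 was lost without wild-type 24 h replicate 3 or 4 or Raptor-deficient 24 h replicate 1 or 2 (adjusted p up to 0.0689). Dhx58 lost it without wild-type 24 h replicate 2, 3 or 4 or Raptor-deficient 24 h replicate 1 or 3 (up to 0.0868). Usp18 lost it without wild-type 24 h replicate 1, 2 or 4 or Raptor-deficient 24 h replicate 1, 2 or 3 (up to 0.135). Ifi35 lost it without wild-type 24 h replicate 1, 3 or 4 or Raptor-deficient 24 h replicate 1, 3 or 4 (up to 0.131). Irf7 lost it without any wild-type 24 h array, Raptor-deficient 24 h replicate 1, 2 or 3, wild-type unstimulated replicate 2 or 3, or Raptor-deficient 8 h replicate 2 or 3 (up to 0.164). Without replicate 1 of both 24 h groups together the calls for Irf7 (adjusted p = 0.204), Usp18 (0.144), Ifi35 (0.0986) and Dhx58 (0.0755) were lost. The GTPases had 0 of 6 called under each of these settings.

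Markers of other cells were measured beside this difference, as the log2 of the summed intensity of each list. B cell markers gave 6.77 to 7.01 in the wild-type 24 h arrays and 7.08 to 7.82 in the Raptor-deficient ones, with 1 of 5 genes called higher (Cd79a). NK cell markers gave 8.33 to 8.50 and 8.62 to 8.79, with 1 of 6 called higher (Prf1). Myeloid markers gave 7.26 to 7.42 and 7.39 to 7.73, overlapping slightly, with 1 of 8 called higher (Lyz2). The CD4 T cell markers themselves were apart, as were the B cell and NK cell lists, at 12.85 to 12.96 and 12.97 to 13.03, with 0 of 5 called. CD8 T cell markers overlapped, at 7.40 to 7.79 and 7.30 to 7.67, with 0 of 2 called. Those of plasmacytoid dendritic cells, the main producers of type I interferon, overlapped at 8.99 to 9.13 and 8.85 to 9.15, with 2 of 5 called higher and 1 lower. The group mean reached the overall median of 5.51 for 2 of 2 CD8 T cell markers in all 6 groups. At 24 h it did so for 0 of 5 B cell markers in wild-type and 1 in Raptor-deficient arrays. In each genotype it did so for 1 of 6 NK cell markers and 4 of 5 plasmacytoid dendritic cell markers at 24 h. Their part in the 24 h difference was not tested, and in bulk RNA a change in the share of cells of a type cannot be told apart from a change in RNA per cell.

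**Figure D3:**
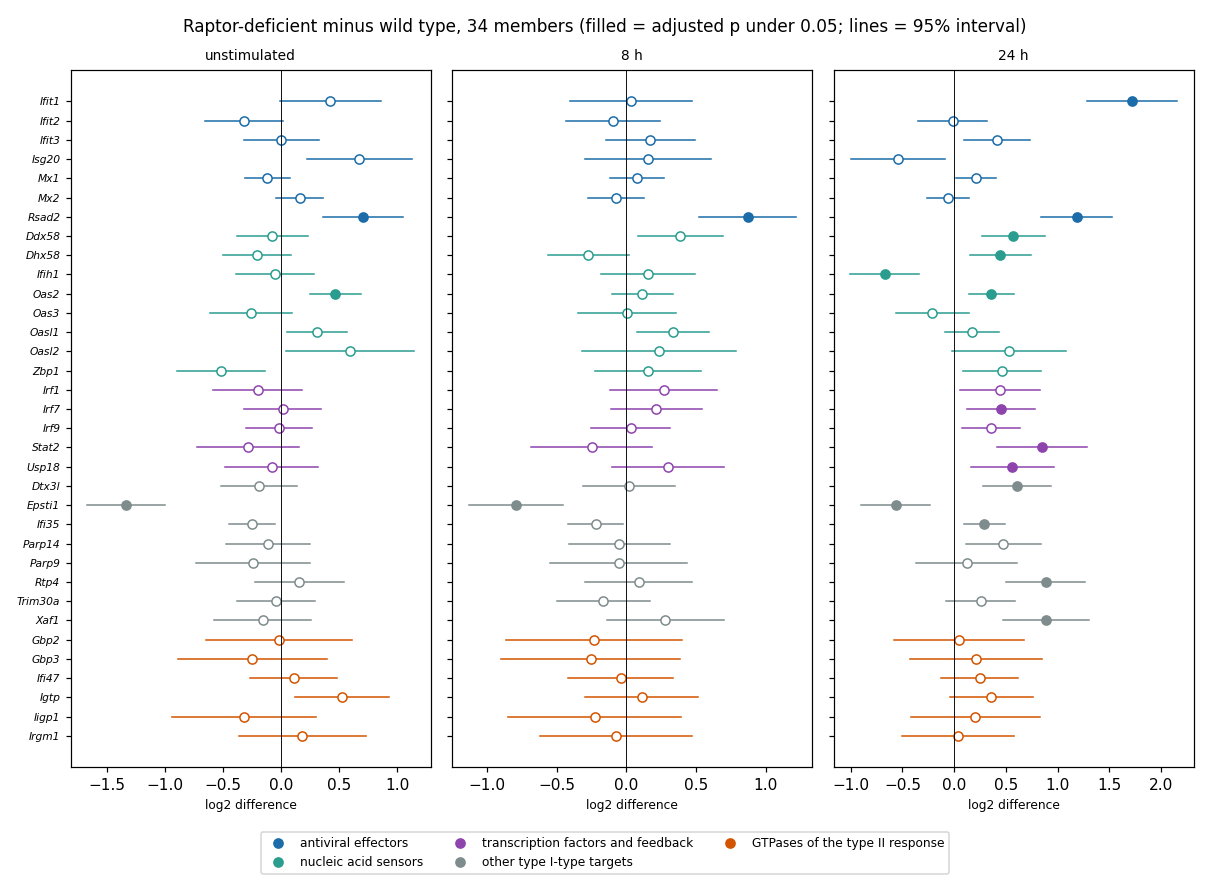
Raptor-deficient minus wild-type difference in log2 intensity (x axes) for the 34 measured members (rows, coloured by class) in unstimulated cells, at 8 h and at 24 h. Points are fitted differences, lines 95% intervals, and filled points have an adjusted p under 0.05; 3, 2 and 14 members are filled, and none is a GTPase.

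For 5 members the change from 8 h to 24 h itself differed between genotypes, 4 upwards and 1 downwards, where 4.53% of all genes were called (1.33% upwards, 3.2% downwards). Ifit1 changed by -0.06 in wild-type cells and 1.63 in Raptor-deficient cells, a difference of 1.69 (SE 0.30, adjusted p = 0.00043) that kept its call without any one array. Stat2 changed by -0.79 and 0.31, a difference of 1.10 (SE 0.30, adjusted p = 0.0303). Dhx58 gave a difference of 0.72 (adjusted p = 0.0365) and Ifi35 one of 0.51 (adjusted p = 0.0266). Ifih1 changed by 0.85 and 0.03, a difference of -0.83 (SE 0.23, adjusted p = 0.0343), so here the rise of wild-type cells was the larger one. Without replicate 1 of both 24 h groups Ifit1 was the 1 member still called. The calls for Stat2, Ifih1, Dhx58 and Ifi35 were each lost in 7 to 10 of the 24 fits that left out 1 array, with adjusted p up to 0.0829, 0.0918, 0.0961 and 0.0719. For Stat2 these left out wild-type 8 h replicate 1 or 2 or 24 h replicate 2, 3 or 4, or Raptor-deficient 8 h replicate 3 or 4 or 24 h replicate 1 or 4. For Ifih1 they left out wild-type 8 h replicate 4 or 24 h replicate 1, 2 or 3, or Raptor-deficient 8 h replicate 1, 2 or 3 or 24 h replicate 1 or 4. For Dhx58 they left out wild-type 8 h replicate 1, 2 or 4 or 24 h replicate 2, 3 or 4, or Raptor-deficient 8 h replicate 1 or 24 h replicate 1, 3 or 4. For Ifi35 they left out wild-type 8 h replicate 1 or 2 or 24 h replicate 4, or Raptor-deficient 8 h replicate 2 or 4 or 24 h replicate 3 or 4. On second probe sets Stat2 (adjusted p = 0.392) and Dhx58 (adjusted p = 0.938) were not called.

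Other genes of the pathway were described from 3 further lists. Of the ligands, receptors and signalling genes, 18 of 19 were measured. Ifng, the type II ligand, was below the median of all values, at 3.05 and 2.94 before stimulation, 3.96 and 3.47 at 8 h and 4.75 and 4.72 at 24 h (means of wild-type and Raptor-deficient cells). It rose from 8 h to 24 h in wild-type (0.79, adjusted p = 0.0197) and Raptor-deficient cells (1.25, adjusted p = 0.000511), and the genotypes differed by -0.03 at 24 h (95% interval -0.56 to 0.49). Ifnb1 and Ifna4, type I ligands, had group means of 4.0 to 4.25 and 3.73 to 3.81 and no called difference in the 9 comparisons. At 24 h 6 of the 18 genes were higher in Raptor-deficient cells and none lower, where 8.35% and 13.1% of all genes were, among them the receptor chains Ifngr2 (0.69) and Ifnar1 (0.48) and the inhibitor Socs3 (0.96). Ifngr2 was also called higher at 8 h (0.72), when no other gene of the list was called and 12.9% of all genes were.

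Further type I-type targets were measured for 28 of 30 names. At 24 h 9 were higher in Raptor-deficient cells and 1 was lower, against 8.35% and 13.1% of all genes. Slfn5, a member of the Schlafen family, read 4.61, 4.97, 4.76 and 4.76 in wild-type cells and 6.35, 6.23, 6.65 and 6.30 in Raptor-deficient cells, a difference of 1.61 (adjusted p = 1.06e-09). Samd9l, an antiviral restriction factor, read 4.93, 4.90, 4.57 and 4.52 against 6.15, 6.22, 6.14 and 6.12, a difference of 1.43 (adjusted p = 9.62e-07). Tdrd7 was higher by 0.52, and Eif2ak2, which encodes the RNA-activated kinase PKR, was lower by 0.68 (adjusted p = 0.00367). At 8 h 4 genes of this list were higher and 1 was lower, against 4.14% and 8.77% of all genes, led by Ifitm3 (1.06), a membrane protein that blocks virus entry.

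Of the other type II targets and antigen processing genes, 17 of 22 were measured, and 6 were higher in Raptor-deficient cells at 24 h with none lower, again against 8.35% and 13.1% of all genes. H2-D1 (0.39) encodes an MHC class I chain, Tapbp (0.48) the chaperone tapasin, and Gbp4 (0.42) is a further guanylate-binding protein. At 8 h 1 gene, the proteasome activator subunit Psme2, was lower (-0.40), where 8.77% of all genes were. In unstimulated cells limma called none of the 18, 28 and 17 genes of these lists, with 1, 6 and 2 at an unadjusted p under 0.05, where 1.94% of all genes were called. After 8 h Tgtp1 (3.54 and 3.34) and Gbp7 (2.43 and 2.80), 2 GTPases outside the members, rose in wild-type and Raptor-deficient cells, and 7 of 17 genes rose and 2 fell in each genotype. Of all genes 18.9% rose and 20.8% fell in wild-type cells, and 16% rose and 16.8% fell in Raptor-deficient cells.

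Within groups of stimulated arrays the members shifted together. In the wild-type 8 h group 23 of 27 type I-type members and all 6 GTPases of replicate 1 were above their group mean, with median deviations of 0.44 and 0.64. In replicate 4 of that group 5 of 27 and 0 of 6 were above it, with medians of -0.32 and -0.89. Replicates 1 and 2 of the Raptor-deficient 8 h group were high and replicates 3 and 4 low in the same way. At 24 h wild-type replicate 4 was low (GTPase median -0.74) and Raptor-deficient replicate 1 high (0.33). The median deviation of all genes in any array lay between -0.04 and 0.02, and members of 1 array share its library, so this describes arrays and is no test. In unstimulated cells the 2 types parted: Raptor-deficient replicate 1 had 12 of 27 type I-type members and 5 of 6 GTPases above the mean, and replicate 3 had 18 of 27 and 0 of 6.

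**Figure D4:**
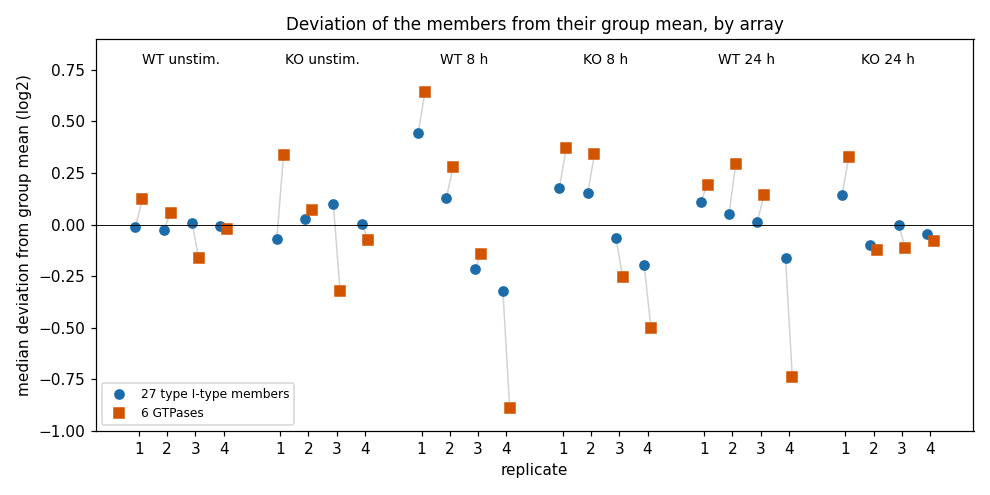
Median deviation from the group mean (y axis, log2) in each array (x axis, replicates 1 to 4 of each group), over 27 type I-type members (blue circles) and 6 GTPases (orange squares), joined by a line within an array. In the 8 h groups both types lie above 0 in replicates 1 and 2 and below 0 in replicates 3 and 4.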

How the data were processed

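Biotinylated cDNA from 20 ng of RNA of each sample was hybridised to 24 arrays. The deposited series matrix holds log2 values of 45141 probe sets, made by the authors with RMA and, per the submitters' processing notes, Partek 6.5; the probe annotation is the platform's and can be old. Array medians lay between 5.15 and 5.29, all after the authors' normalization. Of the probe sets, 28898 name 1 gene, 551 several and 15692 none, and symbols were updated through RefSeq (GRCm38.p6) by gene number, giving 17097 genes. The brightest probe set of a gene, by its mean across arrays, was kept.

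Group means of the 6 groups were fitted with limma 3.58.1 (R 4.3.3; lmFit and eBayes, 18 residual degrees of freedom, two-sided) over all genes, with Benjamini-Hochberg adjustment. No filter on low values was applied. The fit was tested on simulated data. The number of arrays limits the precision.

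Members, gene lists and tests were chosen with earlier results of these data known. Values of the arrays compared are given for up to 5 called members in each direction per genotype comparison and 4 per change over time, by smallest p. For up to 4 called members per difference of changes, by smallest p, the difference is given but not the values of every array. Dhx58 was added to these after its values were seen. Pathway genes are the called ones with the smallest p, up to 3 per list and comparison; Ifng, Ifnb1, Ifna4, Eif2ak2 and the other members given as examples were chosen after their values were seen. Alternatives covered other probe sets, normalization, weights, filters, smaller fits, a replicate block and left-out arrays.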

Additional observations from a re-analysis of the deposited data

Results flagged for a closer look

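For the 19 members chosen by smallest p as described above, each group of 4 arrays was tested for an array far from the other 3 (Dixon's test, 95% critical value). Of 114 groups 9 were flagged, where chance gives about 1 in 20. The arrays were Epsti1 in Raptor-deficient 8 h replicate 1 (4.24), Gbp2 in wild-type 24 h replicate 4 (9.61), Gbp2 in Raptor-deficient 24 h replicate 1 (10.74), Ifit1 in wild-type 24 h replicate 4 (5.11), Isg20 in unstimulated Raptor-deficient replicate 1 (6.68), Mx1 in unstimulated Raptor-deficient replicate 3 (4.61), Oas2 in wild-type 8 h replicate 3 (6.00), Rsad2 in unstimulated Raptor-deficient replicate 1 (5.71) and Stat2 in unstimulated Raptor-deficient replicate 2 (6.28). The low Ifit1 array raised the 24 h difference, and Ifit1 stayed called without it.

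Because limma's test of the difference itself was called, 5 members are listed whose change from 8 h to 24 h differed between genotypes. The log2 differences of the changes were 1.69 for Ifit1, 1.10 for Stat2, 0.72 for Dhx58, 0.51 for Ifi35 and -0.83 for Ifih1.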

How the results depend on the processing

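Counts of called members kept within 1.5 times their value under most alternatives. Fitting the compared groups alone gave 22 instead of 14 for the genotypes at 24 h, 11 instead of 6 for Raptor-deficient cells from 8 h to 24 h, and 1 instead of 3 for unstimulated cells; the cause was not tested. With the second probe set of members that have several, the counts were 1 (unstimulated), 1 instead of 2 (8 h), 8 instead of 13 (wild type, 8 h to 24 h) and 3 instead of 5 (difference of that change), and Epsti1 changed sign at 8 h (0.00404) and 24 h (0.20). The mean of all probe sets gave 3 for that difference of changes, and leaving out replicate 1 of both 24 h groups gave 1. Leaving out 1 array at a time gave 1 to 4 (unstimulated), 2 to 3 (8 h), 9 to 17 (24 h), 21 to 25 and 19 to 24 (wild type and Raptor-deficient, first 8 h), 9 to 14 and 4 to 7 (8 h to 24 h), 0 to 3 (difference, first 8 h) and 1 to 6 (difference, 8 h to 24 h). Replicate numbers were not taken to pair the samples, since correlations of same-numbered deviations ran from -0.06 to 0.25 and were not all over 0.1 in any comparison. Between the genotypes all were positive, at 0.03 to 0.12 (unstimulated), 0.02 to 0.24 (8 h) and 0.06 to 0.25 (24 h). Such low values cannot exclude that same-numbered samples were handled together. With the replicate number as a block the counts were 4, 2, 18, 25, 23, 14, 6, 0 and 6 in that order, each within 1.5 times of the count without the block, and 1 of the 4 unstimulated calls was then a GTPase, where 0 of 6 were called without the block. Cyclic loess and centred medians moved no count past 1.5 times. Dim probe sets limit what could be seen of 6 members (Mx1, Mx2, Oas3, Oasl1, Usp18 and Dhx58).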
